A study of Mus musculus with 3 samples.

Results

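Transcripts of the MHC class I pathway were abundant, and those of class II sparse, in T cells from mouse spleen after 10 h with the protein LZ-8. H2-D1 and H2-K1, the classical class I heavy chains, were at 2034 ± 148 and 1069 ± 53.1 CPM (CPM, a count relative to the TMM-scaled size of its library; mean ± SD, n = 3 libraries here and below), and B2m, the light chain that every class I molecule carries, at 1058 ± 152 CPM. The class I rows summed to 5831 ± 293 CPM and the class II rows to 42.4 ± 1.81 CPM, a 137-fold difference. Nlrc5, the activator of class I genes, was at 452 ± 46.2 CPM, and Ciita, the activator of class II genes, at 2.43 ± 0.469 CPM. Untreated cells were not among the samples, and what LZ-8 changed could not be measured.

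The genes described are all rows of the count table whose symbol starts with H2- and 12 companions of antigen presentation, 62 of 44788 rows. By symbol, 36 H2- rows were class I, 12 were class II, and 2 (H2-Ke2 and H2-Ke6) lie among the MHC genes without encoding an MHC chain. The companions were B2m, the peptide transporter genes Tap1 and Tap2, the peptide editors Tapbp and Tapbpl, the trimming peptidase Erap1, the chaperones Calr, Canx and Pdia3, the invariant chain Cd74, and the activators Nlrc5 and Ciita. The mean reached 10 CPM in 30 of the 62 rows and 1 CPM in 39. In 22 rows no library reached 1 CPM, and 14 of these had no count. Over the 44788 rows, 9204 reached a mean of 10 CPM and 21657 had no count.

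MHC class I molecules show peptides made inside the cell to CD8 T cells. The proteasome cuts proteins, the TAP transporter carries the peptides into the endoplasmic reticulum, and tapasin, calreticulin and their partners load them on the heavy chain and beta-2 microglobulin. Class II molecules show peptides from endosomes to CD4 T cells and are typical of B cells, dendritic cells and macrophages. Resting mouse T cells are known for high class I and little or no class II expression.

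The libraries were made from splenic T lymphocytes of BALB/c females aged 6 to 8 weeks. The cells were isolated with beads against CD90.2, the Thy1 surface protein, and kept in RPMI with 2% serum and LZ-8, a protein of the mushroom Ganoderma lucidum that acts on immune cells. The labels give 1 group with replicates 1, 2 and 3 and do not say whether these were separate animals or cultures. SDs therefore cover only how far these samples spread, which may be technical, and p-values hold for these samples only. The libraries held 13239482 to 15683820 counts, of which the members took 1.06% to 1.1%. The share of the 18S ribosomal RNA row Rn18s-rs5 ranged from 0.992% in replicate 3 to 5.83% in replicate 1, so replicates 1 and 3 stood furthest apart. A level of 3 counts, the most that a count of 0 allows, corresponded to 0.186 to 0.236 CPM and covers counting error only. All 18 T cell markers examined were at 10 CPM or more, summing to 6745 ± 135 CPM. In such bulk samples, fewer cells of a type and less RNA per cell cannot be told apart.

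BALB/c mice carry the d haplotype of the MHC, while the reference genome comes from C57BL/6, which carries the b haplotype. A read was therefore assigned by its likeness to a C57BL/6 allele, and L, a class I gene of the d haplotype, has no row of its own. How many reads of BALB/c alleles were lost or counted in a neighbouring row was not tested.

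Class I and class II genes are known to be switched on through several promoter elements. These are a kB element for NF-kB, an element for interferon regulatory factors, and an X box and a Y box bound by the RFX, CREB and NF-Y factors that recruit NLRC5 or CIITA. RefSeq promoter windows (GRCm38.p6, 250 bases before to 50 after the start) were found for 38 of the 62 members, 22 of class I and 8 of class II. The 180 bases before the start are shown for 7 members, from B2m, the highest per kilobase of exon, to the class II gene H2-Aa. Capitals mark matches on either strand, some of which overlap. The kB forms were GGGGATTCC, or GGG and TTTCC with any 2 bases between. The interferon element was GAAA and GAAA with any 2 bases between. TGACG stood for only a part of the X box, and CCAAT for the Y box, read ATTGG on the other strand.
B2m (chr2:122147507-122147686, forward strand): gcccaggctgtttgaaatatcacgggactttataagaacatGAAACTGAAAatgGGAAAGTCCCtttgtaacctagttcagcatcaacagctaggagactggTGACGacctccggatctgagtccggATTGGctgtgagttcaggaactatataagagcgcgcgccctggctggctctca
H2-D1 (chr17:35262914-35263093, forward strand): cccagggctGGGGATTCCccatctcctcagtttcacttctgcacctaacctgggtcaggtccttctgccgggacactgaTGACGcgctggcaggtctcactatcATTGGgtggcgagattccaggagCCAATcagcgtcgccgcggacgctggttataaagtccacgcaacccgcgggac
H2-K1 (chr17:34000348-34000527, reverse strand): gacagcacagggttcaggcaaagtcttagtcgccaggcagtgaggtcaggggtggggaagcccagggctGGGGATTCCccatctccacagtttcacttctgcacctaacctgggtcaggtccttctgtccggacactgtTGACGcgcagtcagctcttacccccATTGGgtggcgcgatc
H2-Q4 (chr17:35379437-35379616, forward strand): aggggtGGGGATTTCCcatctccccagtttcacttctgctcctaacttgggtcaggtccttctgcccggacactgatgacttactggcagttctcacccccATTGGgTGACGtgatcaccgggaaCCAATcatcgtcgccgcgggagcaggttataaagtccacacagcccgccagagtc
H2-Q7 (chr17:35438975-35439154, forward strand): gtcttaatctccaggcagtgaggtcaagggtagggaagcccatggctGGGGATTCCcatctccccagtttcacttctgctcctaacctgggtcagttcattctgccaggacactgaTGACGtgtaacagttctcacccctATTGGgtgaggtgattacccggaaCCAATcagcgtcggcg
H2-Q10 (chr17:35469909-35470088, forward strand): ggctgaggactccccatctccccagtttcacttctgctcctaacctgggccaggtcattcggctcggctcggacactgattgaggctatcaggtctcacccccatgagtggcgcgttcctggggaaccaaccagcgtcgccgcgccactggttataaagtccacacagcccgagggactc
H2-Aa (chr17:34287824-34288003, reverse strand): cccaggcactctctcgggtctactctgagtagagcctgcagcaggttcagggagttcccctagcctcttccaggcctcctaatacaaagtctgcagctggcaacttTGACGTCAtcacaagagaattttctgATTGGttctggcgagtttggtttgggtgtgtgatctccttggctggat

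GGGGATTCC was present in 0.25% of all 32851 windows and, among the members, in H2-D1, H2-K1, H2-Q6 and H2-Q7. The kB form with 2 free bases was in 1.63% of all windows, and among the members in B2m and H2-Q4. The GAAA form of the interferon element was in 3.44% of all windows and in B2m, Erap1, H2-T22 and H2-T23. TGACG and CCAAT are common, in 20.8% and 37.4% of all windows. The pair TGACG followed by ATTGG after 19 to 21 bases, a spacing chosen after these sequences were read, was in 0.201% of all windows and in 6 members, namely B2m, H2-D1, H2-K1, H2-Q7, H2-M3 and H2-Aa. Per kilobase of exon, the scale used here to set genes side by side, those 6 ran from 1231 ± 176 CPM for B2m to 2.66 ± 0.257 CPM for H2-Aa. H2-Q10, with no exact match to any of these strings in its window, was at 68.9 ± 9.31 CPM per kilobase. A match is a likeness of letters in the C57BL/6 sequence and not a measured binding site. Only these exact strings were searched, so a window without a match may hold another form of an element.

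H2-D1 and H2-K1 together made up 53.2 ± 0.396% of the summed class I CPM. H2-D1 (chromosome 17, 35262730 to 35267499, GRCm38, GENCODE bounds) had 2205, 1953 and 1944 CPM in replicates 1, 2 and 3, and was thus highest in replicate 1. H2-K1 (chromosome 17, 33996017 to 34000347) had 1099.9, 1007 and 1099 CPM, with replicate 2 the lowest. Both genes encode heavy chains that present peptides to CD8 T cells. Per kilobase of exon, H2-D1 was at 789 ± 57.4 CPM and H2-K1 at 364 ± 18.1 CPM, the 54th and 138th highest of 12299 genes ranked. The log2 ratio of H2-K1 to H2-D1 per kilobase was -1.12 ± 0.09, with the same sign in 3 of 3 libraries (two-sided exact sign-flip p = 0.25, the smallest that 3 libraries allow). With the longest transcript as the length, it was -0.76 ± 0.09. The L gene of the d haplotype has no row, and how many of its reads fell in either row was not tested.

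B2m (chromosome 2, 122147686 to 122153083) had 1181, 1106 and 889 CPM in replicates 1, 2 and 3, lowest in replicate 3. Per kilobase it was at 1231 ± 176 CPM, the 25th highest gene and above H2-D1 in all 3 libraries, whereas in CPM it was below H2-D1 in all 3. Against the sum of all class I rows per kilobase, its log2 ratio was -0.85 ± 0.19, so the heavy chain rows together exceeded the light chain in each library (two-sided exact sign-flip p = 0.25).

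The Qa genes of the H2-Q region encode class I molecules with fewer alleles, some of them held in the membrane by a lipid anchor. H2-Q4 (chromosome 17, 35379617 to 35385290) was the third most abundant class I row, with 872, 789 and 719 CPM in replicates 1, 2 and 3. It made up 13.6 ± 0.916% of the class I sum, and a gene annotated on the opposite strand overlaps 19.1% of its exonic bases. H2-Q6 had 343, 312 and 298 CPM, and H2-Q7, the gene of Qa-2 with its near copy, 120.0, 109 and 82.5 CPM. These 3 rows were highest in replicate 1 and lowest in replicate 3. H2-Q1 had 208, 268 and 340.1 CPM in replicates 1, 2 and 3, the reverse order of libraries. H2-Q10, known for a secreted product of the liver, had 285, 269 and 346 CPM, or 5.15 ± 0.765% of the class I sum. Among the rest of the region, H2-Q2 had 133, 84.9 and 95.0 CPM. The polymorphic pseudogene H2-Q5 had 89.6, 65.9 and 39.3 CPM, and the pseudogene H2-Q3 had 9.98, 5.67 and 8.36 CPM. Both pseudogene rows and H2-Q2 were highest in replicate 1. H2-K2, an annotated pseudogene beside H2-K1, had 103, 106 and 139 CPM, highest in replicate 3.

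**Figure D1:**
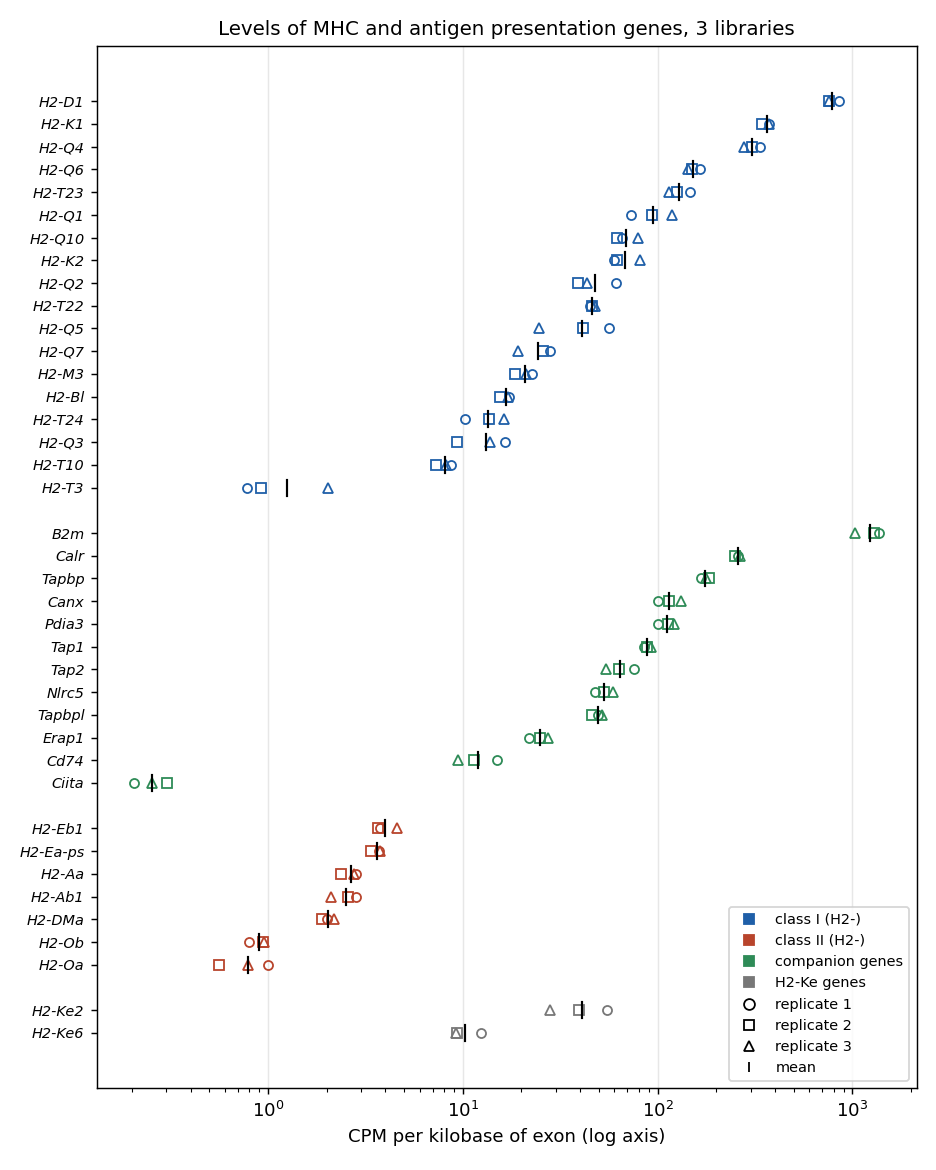
Levels of the 39 members averaging 1 CPM or more, as CPM per kilobase of exon on a log axis, grouped by class; each symbol is 1 library and the black bar the mean. Class I rows reach 789 (H2-D1) and class II rows 4.0 (H2-Eb1), and among companions B2m is at 1231 and Ciita at 0.255.

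Genes of the H2-T and H2-M regions encode nonclassical class I molecules. H2-T23, the gene of Qa-1, which presents signal peptides of other class I chains to NK receptors, had 422, 360.0 and 331 CPM in replicates 1, 2 and 3. H2-T22, whose product is a ligand of gamma-delta T cell receptors, had 154, 157 and 163 CPM, which did not differ beyond counting noise (chi-square adjusted p = 0.196). H2-T23 was highest in replicate 1, and the libraries of H2-T22 lay close together. H2-T10, a polymorphic pseudogene in the reference, had 29.9, 25 and 28 CPM. H2-T24 had 22.2, 29.6 and 35.6 CPM. H2-M3, which presents peptides that start with formylmethionine, had 32.7, 26.6 and 30.3 CPM. The polymorphic pseudogene H2-Bl was close to it with 28.9, 26.3 and 28.6 CPM. H2-T3, the gene of the thymus leukaemia antigen, had only 27, 38 and 90 counts, or 2.12, 2.51 and 5.57 CPM, and rested on replicate 3, since without that library its mean fell from 3.40 to 2.28 CPM.

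Class I rows with few or no counts lay mostly in the H2-M region. No count was found in any library for H2-M1, H2-M9, H2-M11, H2-M10.1, H2-M10.4, H2-M10.5, H2-M10.6 and H2-M4-ps, nor for H2-D4, H2-Q8, H2-Q9, H2-T18 and H2-T3-like. H2-M2, H2-M5, H2-M10.2, H2-M10.3 and H2-M6-ps had 0 to 4 counts in a library. In all, 13 of the 36 class I rows had no count and 16 averaged 10 CPM or more. H2-Q3 and H2-T3 lay between, at 8.0 and 3.4 CPM, and the other rows were at or near the floor. H2-D4, H2-Q8, H2-Q9, H2-T18, H2-T3-like and H2-M4-ps were also the 6 members with no match among the genes of the GENCODE annotation. Whether reads could be assigned to these 6 rows was not tested, so their lack of counts may not mean a lack of transcripts.

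Several of these rows can exchange reads with near copies or with genes that overlap them. Of the 100-base stretches in the annotated transcripts of each gene, the share also found in transcripts of another gene was 3.6% for H2-D1, 1.0% for H2-K1, 8.0% for H2-Q10, 12% for H2-Q7, 13% for H2-Q6, 14% for H2-Q5 and 14.1% for H2-Q4. For H2-T22 it was 31.5% and for H2-T10 28.1%, where genes on the opposite strand overlap 29.4% and 27.1% of the exonic bases. Of the stretches that H2-Q4 shared, 306 were also in Gm11131, the gene on its opposite strand, and 30 in H2-Q6. These shares hold for C57BL/6 sequence, and the sources used here do not say whether the authors counted by strand. For H2-T23 the share was 3.2%, and for H2-Q3, H2-T3 and H2-T24 it was 0. By this share alone, H2-T22, H2-T10 and H2-Q4 to H2-Q7 were the most uncertain of these rows. The share does not cover BALB/c alleles, so rows with smaller shares, such as H2-D1, H2-K1 and H2-Q10, may be uncertain too.

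The genes of peptide supply and loading were abundant, with 10 of the 12 companions at 100 CPM or more. Tap1 (chromosome 17, 34187553 to 34197225), a chain of the peptide transporter, had 465, 481 and 505 CPM in replicates 1, 2 and 3. Tap2, the partner chain (chromosome 17, 34203527 to 34216321), had 285, 240.3 and 206 CPM. The 2 chains work as a pair, and their rows moved in opposite order across the libraries. Per kilobase, their log2 ratio was 0.17, 0.47 and 0.76 in replicates 1, 2 and 3, with a mean of 0.47 ± 0.30 (two-sided exact sign-flip p = 0.25). It was 1.0 without division by length. Genes annotated on the opposite strand overlap 18.5% of the exonic bases of Tap2.

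Tapbp, the gene of tapasin, which bridges the transporter and the heavy chain, had 603, 668 and 641 CPM. Its row is uncertain, since other annotated genes overlap 29% of its exonic bases, mostly on the opposite strand. Tapbpl, its relative that edits peptides outside the loading complex, had 116, 109 and 122 CPM. Per kilobase tapasin was at 176 ± 9.06 CPM and Tapbpl at 49.2 ± 2.78 CPM. Among the chaperones of the loading complex, Calr had 745, 719 and 767 CPM. Canx, which receives the new heavy chain, had 471, 535 and 619 CPM. Pdia3, the disulphide partner of tapasin in the complex, had 316, 355 and 384 CPM. These 3 genes also serve the folding of other glycoproteins, and all were highest in replicate 3. Erap1, which trims peptides to the length that fits class I, had 159.8, 182 and 199 CPM, or 24.8 ± 2.70 CPM per kilobase.

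Set in order by the mean per kilobase of exon, B2m was followed by H2-D1, H2-K1, H2-Q4, Calr, Tapbp, H2-Q6 and H2-T23. Each of these 7 steps held in 3 of 3 libraries. Since the order was taken from the same 3 libraries, this count describes their spread and is not a separate test. The order depends on the length used. With the longest transcript as length, Calr was above H2-Q4 in 3 of 3 libraries (log2 ratio of H2-Q4 to Calr -0.16 ± 0.17) and the other 6 steps kept their direction. Without division by length, B2m was below H2-D1 and H2-Q6 below H2-T23 in 3 of 3 libraries. From there on, neighbours often did not differ beyond their spread. For H2-T23 over Canx, the log2 ratio was 0.16 ± 0.37, and for Canx over Pdia3 it was 0.04 ± 0.06, with the order held in 2 of 3 libraries in both pairs.

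The activators of the 2 classes stood far apart. Nlrc5 (chromosome 8, 94434356 to 94527272), which drives class I genes with B2m and Tap1, had 407, 449.7 and 499 CPM in replicates 1, 2 and 3. Ciita (chromosome 16, 10480059 to 10528418) had 25, 44 and 39 counts, or 1.96, 2.90 and 2.42 CPM. The lowest Nlrc5 value exceeded the highest Ciita value by far. Per kilobase, Nlrc5 was 211-fold higher, with a log2 ratio of 7.72 ± 0.24 and the same sign in 3 of 3 libraries (two-sided exact sign-flip p = 0.25).

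Class II rows were detected at low levels, 7 of 12 averaging 1 CPM or more. H2-Aa and H2-Ab1 encode the chains of the A molecule. H2-Aa (chromosome 17, 34282744 to 34287823) had 137, 136 and 170 counts in replicates 1, 2 and 3, or 10.8, 8.97 and 10.5 CPM, and was the only class II row to reach a mean of 10 CPM. H2-Ab1 (chromosome 17, 34257689 to 34269419) had 93, 100 and 87 counts, or 7.31, 6.59 and 5.39 CPM. The libraries of each gene lay within counting noise of each other.

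H2-Eb1 and H2-Ea-ps stand for the beta and alpha chains of the E molecule. In the b haplotype of the reference the alpha gene is silent through a promoter deletion, which is why its row carries a pseudogene name, whereas BALB/c mice are known to make E. H2-Eb1 had 7.31, 7.12 and 8.92 CPM in replicates 1, 2 and 3, and H2-Ea-ps had 49, 53 and 63 counts, or 3.85, 3.50 and 3.90 CPM. Per kilobase of exon they were at 4.0 ± 0.509 and 3.62 ± 0.214 CPM, beside H2-Aa at 2.66 ± 0.257 CPM and H2-Ab1 at 2.50 ± 0.377 CPM. The order of these 4 genes depends on the length used. With the longest transcript as length, H2-Ab1 was the highest at 5.31 CPM per kilobase, H2-Eb1 was at 4.66, H2-Ea-ps at 3.62 and H2-Aa at 3.13. In CPM, H2-Aa was the highest of the 4 and H2-Ea-ps the lowest. H2-DMa, a chain of the DM molecule that loads peptides on class II, was at 7.0 ± 0.52 CPM, while its partner rows H2-DMb1 and H2-DMb2 were at 0.363 ± 0.146 and 0.925 ± 0.175 CPM. H2-Ob and H2-Oa, the chains of the DM inhibitor, were at 4.85 ± 0.457 and 1.11 ± 0.311 CPM. H2-Eb2 had 0 to 2 counts in a library, H2-Pa 0 to 2, and H2-Pb none.

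Cd74 (chromosome 18, 60803848 to 60812652), the invariant chain that escorts class II molecules to endosomes, had 320, 290 and 257 counts in replicates 1, 2 and 3, or 25.1, 19.1 and 15.9 CPM. It was highest in replicate 1 and lowest in replicate 3, 1.58-fold apart. Per kilobase its log2 ratio to H2-Aa was 2.15 ± 0.33, and 1.77 in replicate 3 alone (two-sided exact sign-flip p = 0.25). It was 0.97 without division by length.

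Transcripts listed as markers of cells known to carry class II were also found, most of them at low levels. Of 12 B cell markers, 7 averaged 1 CPM or more and none was at 0 in all libraries. Their sum was 16.3, 15.4 and 16.9 CPM in replicates 1, 2 and 3, with Pax5 at 2.96 ± 0.228 and Cd79a at 1.41 ± 0.148 CPM. Of 10 dendritic cell markers, 2 reached 1 CPM and 4 (Clec9a, Siglech, Cd209a and Clec10a) were at 0. Their sum of 65.2 to 76.9 CPM was mostly Cst3, which many cells express, at 60.6 ± 5.20 CPM. Of 13 macrophage and monocyte markers, 12 were in the table, 2 reached 1 CPM, and Csf1r, C1qa, C1qb, C1qc, Mertk and Fcgr1 were at 0 in all libraries. Their sum was 13.2 to 16.5 CPM, led by Mpeg1 at 9.20 ± 1.44 CPM. Without Cst3, the 3 lists summed to 43.1 ± 2.91 CPM. The largest parts of that sum were Zbtb46 at 9.9 ± 0.888, Mpeg1 at 9.20 ± 1.44 and Cd68 at 5.57 ± 0.265 CPM. The sum depends on which markers are listed, so it cannot be set against the 42.4 ± 1.81 CPM of the class II rows. Whether such cells were present, and what part of the class II transcripts came from them, was not tested.

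**Figure D2:**
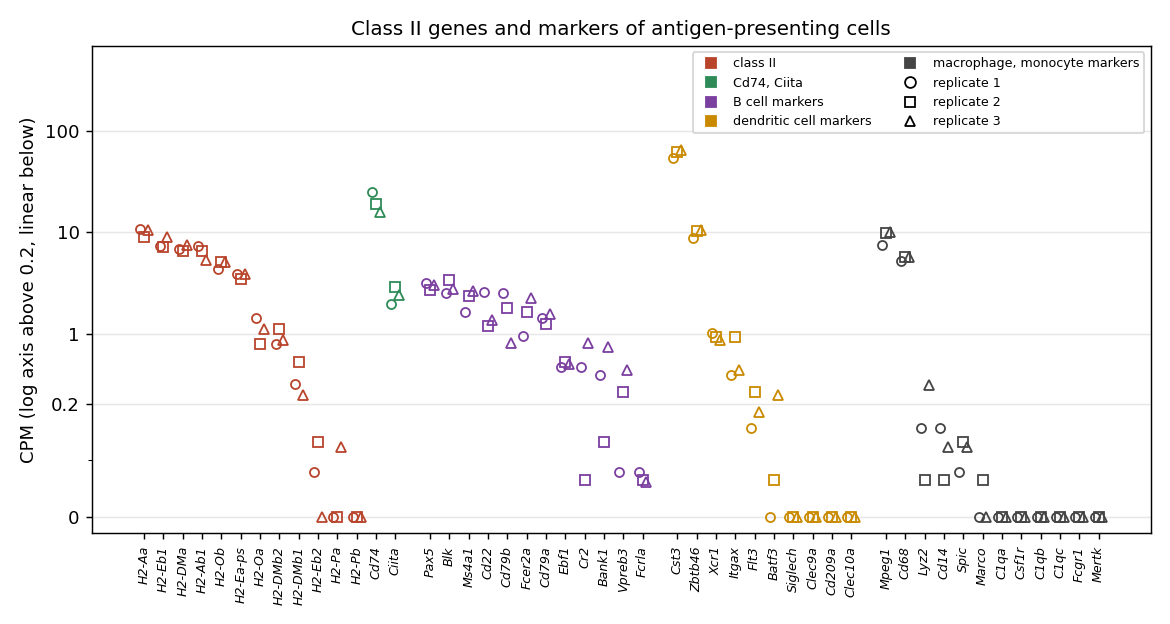
CPM of the 12 class II rows, Cd74 and Ciita beside markers of B cells, dendritic cells, and macrophages and monocytes, 1 symbol per library (axis logarithmic above 0.2 CPM, linear below). H2-Aa is at 10.1 CPM and Cd74 at 20.1 CPM. Among the markers, Pax5 is at 2.96, Mpeg1 at 9.2, Zbtb46 at 9.9 and Cst3 at 60.6 CPM, and 6 macrophage markers are at 0.

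The 2 H2-Ke rows belong to genes that lie in the MHC and serve other functions. H2-Ke2, whose current symbol Pfdn6 names a subunit of the chaperone prefoldin, had 65.2, 47.3 and 33.3 CPM in replicates 1, 2 and 3. H2-Ke6, also known as Hsd17b8, a dehydrogenase of fatty acid and steroid metabolism, had 20.4, 15.4 and 15.2 CPM. Both were highest in replicate 1 and lowest in replicate 3. The row of H2-Ke6 is uncertain, since another annotated gene overlaps 86.4% of its exonic bases.

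The spread between libraries was then compared with counting noise. A chi-square test of the 3 counts of each gene, adjusted by the Benjamini-Hochberg method over all genes tested, called 42.8% of 15392 genes as differing between libraries. Of the 40 members with enough counts to test, 28 were called (70%), namely 15 of 18 class I rows, 11 of 12 companions, both H2-Ke rows and none of 8 class II rows. Higher counts make small differences easier to call. Of all genes averaging 100 CPM or more, 78.5% were called, and 20 of 21 members at that level. At 10 CPM or more, the shares were 58.5% of all genes and 26 of 30 members. The 8 class II rows had 41 to 443 counts in all. Genes in that range were called in 22.9% of cases, and in the chi-square test none of the class II rows had an unadjusted p under 0.05 (lowest 0.116). The median coefficient of variation was 10.6% over the members at 10 CPM or more and 8.67% over all such genes.

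Most called members differed by small factors. A call together with a gap of 1.5-fold or more between the highest and lowest library was found for 13.8% of all genes tested and for 8 of the 40 members. These were H2-T3 (2.60-fold), H2-Q5 (2.28-fold), H2-Ke2 (1.96-fold), H2-Q3 (1.76-fold), H2-Q1 (1.63-fold), H2-T24 (1.60-fold), Cd74 (1.58-fold) and H2-Q2 (1.56-fold). H2-D1 and H2-K1 differed by 1.13-fold and 1.09-fold, and their chi-square adjusted p-values of 6.49e-63 and 1.3e-16 rest on counts of 14002 to 31386 per library. The libraries did not shift the class I set as a block. Of the 15 class I rows called, 10 were highest in replicate 1 and 5 in replicate 3, and of the 11 companions called, 7 were highest in replicate 3, 3 in replicate 1 and 1 in replicate 2. Of all 6589 genes called, 2758 were highest in replicate 1, 886 in replicate 2 and 2945 in replicate 3. H2-Q1, H2-Q10, H2-K2, H2-T3 and H2-T24 were the 5 class I rows highest in replicate 3. Over all called members, the median exonic length was 2085 bases for the 15 highest in replicate 1 and 3009.5 bases for the 12 highest in replicate 3. These medians mix the classes. They were 2380 and 2728 bases in class I, and 1679 (3 rows) and 4693 bases (7 rows) in the companions. Both H2-Ke rows, with a median of 1418 bases, were highest in replicate 1. The lengths of all genes called were not compared. Replicates 1 and 3 also had the highest and lowest share of 18S ribosomal RNA. The part of length and of RNA makeup in these differences was not tested.

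**Figure D3:**
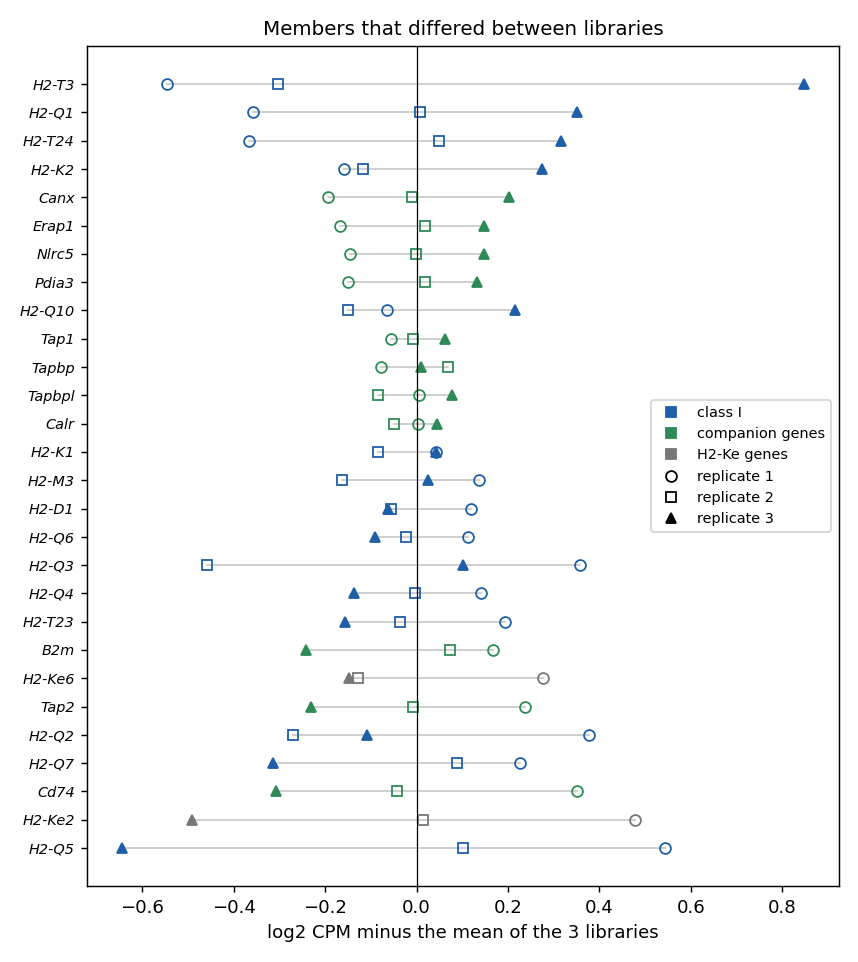
Deviation of each library from the mean of the 3 libraries, in log2 CPM, for the 28 members called by the chi-square test, ordered by replicate 3 minus replicate 1. H2-Q5 and H2-Ke2 lie lowest in replicate 3, H2-T3 and H2-Q1 highest, and H2-K1 and Calr stay near 0.

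Other genes of antigen processing and recognition were mostly transcribed as well. Of 41 such genes, 27 averaged 10 CPM or more and 33 averaged 1 CPM or more, and 17 of the 35 tested were called between libraries (48.6%, beside 42.8% of all genes). Psmb8 and Psmb9, catalytic subunits of the immunoproteasome, were at 154 ± 13.6 and 92.1 ± 11.3 CPM. Psme1 and Psme2, the chains of its activator, were at 403 ± 11 and 143 ± 5.24 CPM. The peptidases Nrd1, Tpp2, Lnpep and Thop1 ranged from 105 ± 8.39 CPM for Thop1 to 255 ± 26.6 CPM for Nrd1. The endosomal proteases Ctsd and Ctsb were at 130.1 ± 7.36 and 100.3 ± 6.15 CPM.

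Factors that act on MHC promoters were present for both classes. Irf1, an interferon regulatory factor that activates class I genes, had 346, 309 and 317 CPM in replicates 1, 2 and 3. Irf2 was at 60.1 ± 0.687 CPM. The RFX complex binds the X box of both classes. Its genes Rfx5, Rfxap and Rfxank were at 49.7 ± 2.69, 22.9 ± 3.27 and 17.2 ± 0.985 CPM. Creb1 and Nfya, of the factors beside it, were at 95.2 ± 13.6 and 66.0 ± 1.06 CPM. All of these exceeded Ciita at 2.43 ± 0.469 CPM. Per kilobase Rfx5 was at 9.04 CPM and Ciita at 0.255 ± 0.0492 CPM.

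Of the receptors that read MHC molecules, Cd4 was at 277 ± 4.73 CPM, Cd8a at 134 ± 15.3 CPM, Cd8b1 at 63.4 ± 6.86 CPM, and Lag3, an inhibitory receptor for class II, at 59.3 ± 1.30 CPM. The class I-like genes Mill1 and Mill2 had no count in any library.

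**Figure D4:**
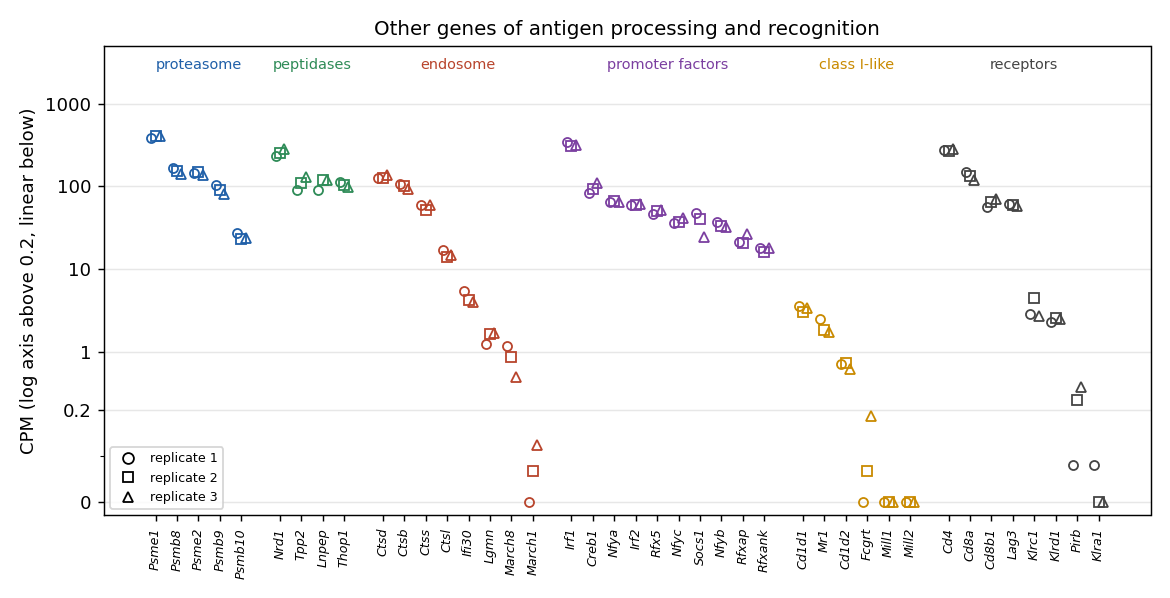
CPM of 41 other genes of antigen processing and recognition, grouped by role, 1 symbol per library (axis logarithmic above 0.2 CPM, linear below). Psme1 at 403 CPM and Irf1 at 324 CPM are the highest, and Mill1 and Mill2 are at 0.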

How the data were processed

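RNA sequencing libraries of 3 samples in 1 group were analysed. Trizol RNA was sequenced on the Ion Proton system, per the labels' protocols. What the authors deposited is a single table of whole-number counts, with gene symbols as rows and replicates as columns. Per the submitters' processing notes, reads were placed on mm10. The sources used here name no aligner, counting tool, annotation, strand setting or filter. Counts were scaled by TMM in edgeR 4.0.16 (R 4.3.3) to CPM of the effective library size, with factors of 0.962, 1.01 and 1.03. Libraries differed by more than counting noise, so none was taken for a copy of another.

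Levels between genes were set side by side as CPM per kilobase of the union of exons in GENCODE release M21 (GRCm38), where 56 of 62 members matched, H2-Ke2 through its current symbol. A chi-square test set the 3 counts of a gene against the effective library sizes wherever each expected count reached 5, with Benjamini-Hochberg adjustment over all genes at 0.05. It compares libraries, not conditions. It was tested on simulated counts that held set changes and otherwise counting noise only. That check does not cover the larger spread between these libraries. Log2 ratios had a two-sided exact sign-flip test over libraries. With 3 libraries its p is 0.25 whenever the signs agree, whatever the spread. The members named were those averaging 10 CPM or more, those at 0, the classical class II genes, Ciita, and those called with a gap of 1.5-fold or more; of the other pathway genes, those with at least 100 CPM, the RFX genes and the next 6 by mean. Other genes, marker genes among them, were named after their values were seen. The members and lists were chosen with earlier results of these data known. Some genes of these lists are not reported here. Promoter windows came from RefSeq (GRCm38.p6). Alternatives were DESeq2 1.42.0 size factors, no scaling factor, other filters and limits, other lengths, and leaving out each replicate.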

Additional observations from a re-analysis of the deposited data

How the results depend on the processing

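Scaling by DESeq2 size factors or by library totals alone kept the 3 counts of members at 10 CPM or more (16 class I, 1 class II, 11 companions), and all 36 named levels moved by less than 1 SD. The single class II row at 10 CPM, H2-Aa, sat at the limit, and the class II count ranged from 0 to 1 when each replicate was left out; at a limit of 1 CPM it was 7. Per kilobase of exon, the summed class I level was 2203 CPM and the class II level 17.3 CPM, their log2 ratio -6.99, and the share of H2-K1 and H2-D1 in class I 52.3%. Without division by length, the log2 ratios were -0.93 for H2-K1 to H2-D1, 1.0 for Tap1 to Tap2, 0.97 for Cd74 to H2-Aa and -2.47 for B2m to summed class I. With the longest transcript as length they were -0.76 for H2-K1 to H2-D1, 0.82 for Tap1 to Tap2, 7.22 for Nlrc5 to Ciita and -1.13 for B2m to summed class I. None of these 5 ratios changed sign under either length setting. Among the ratios behind the order of members, for which both length settings were added after seeing the data, several reversed. Without division by length, the log2 ratio was -0.95 for B2m to H2-D1, -0.22 for H2-Q6 to H2-T23, -0.54 for H2-T23 to Canx, -0.38 for H2-Eb1 to H2-Aa, -1.42 for H2-Ea-ps to H2-Aa and -0.77 for H2-Ea-ps to H2-Ab1. With the longest transcript, it was -0.16 for H2-Q4 to Calr, -0.01 for Canx to Pdia3, -0.18 for H2-Eb1 to H2-Ab1 and -0.54 for H2-Ea-ps to H2-Ab1.

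The count of all genes differing between libraries, 6589, ranged from 3555 to 6403 when a replicate was left out (3836 without replicate 1 and 3555 without replicate 3), and that of members, 28, from 23 to 24. With a gap of 1.5-fold or more also required, 2127 genes and 8 members were called. The 28 members called were also called with DESeq2 size factors, with an expected count of 10 or more and with no filter on counts, and 27 of them with no scaling factor. No paired analysis was possible because all samples belong to 1 group.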
